A study of Rattus norvegicus with 26 samples.

Results

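The genes described here encode proteins of the node of Ranvier, the paranode and the juxtaparanode of myelinated axons. They were chosen by gene name from a list of 7, of which Cntnap1, Cntn1, Cntn2, Nfasc, Ank3 and Sptbn4 were matched among the 32883 genes of the count table. Cntnap2 was not analysed here. All 6 matched genes passed the filter on low counts, among 17990 genes tested. Bulk poly(A) RNA sequencing was performed on 5 mm segments of the spinal cord of wild type female Sprague-Dawley rats, with an age given as postnatal day 70 and a body weight of 250 g. The Intact group (4 libraries) came from intact or sham rats that the labels call untreated. All the other rats received a clip compression of 60 g for 1 min at the tenth thoracic level. The sub-SCI group (3 libraries) was taken at the time of transplantation, 7 days after injury. The other injured rats received an intrathecal injection of hUC-MSCs, mesenchymal stem cells from human umbilical cord, or of PBS as vehicle, on the same day. They were taken at 1, 2 or 4 weeks post-transplantation (wpt), which gave 3, 2 and 4 libraries for +PBS (+PBS-1w, +PBS-2w and +PBS-4w) and 3, 3 and 4 libraries for +MSC. These numbers follow the labels, whereas the study's methods name +MSC-2w as the group with fewer repeats. The study's methods state that the rats received cyclosporin A daily against rejection, so the grafts were human cells in immunosuppressed hosts. The methods call the libraries of a group biological replicates, and the labels do not tie a library to an animal.

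In myelinated axons, voltage-gated sodium channels are concentrated at short gaps in the myelin, the nodes of Ranvier, where the action potential is regenerated. At the node, ankyrin G (encoded by Ank3) and beta IV spectrin (Sptbn4) hold the channels and the neuronal form of neurofascin (Nfasc) to the cytoskeleton. At the flanking paranode, the axonal proteins Caspr (Cntnap1) and contactin-1 (Cntn1) bind the glial form of neurofascin and seal the myelin loops to the axon. Beneath the adjoining myelin lies the juxtaparanode, where contactin-2 (Cntn2, also called TAG-1), made by both neurons and oligodendrocytes, gathers potassium channels. Compression and demyelination of the spinal cord are known to disturb these domains.

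Start-site windows were read from RefSeq (GRCr8) for 5 of the 6 genes (all but Cntnap1), matched by symbol, each covering 250 bases before and 50 bases after an annotated start. Sptbn4 and Cntn2 are shown because theirs are the windows richest in G and C among these genes, and Nfasc is shown because its 2 windows belong to different annotated starts of 1 gene, which a count per gene pools. Capitals mark the GC box GGGCGG, searched on both strands.
Sptbn4, chr1:91864791-91865090, minus strand: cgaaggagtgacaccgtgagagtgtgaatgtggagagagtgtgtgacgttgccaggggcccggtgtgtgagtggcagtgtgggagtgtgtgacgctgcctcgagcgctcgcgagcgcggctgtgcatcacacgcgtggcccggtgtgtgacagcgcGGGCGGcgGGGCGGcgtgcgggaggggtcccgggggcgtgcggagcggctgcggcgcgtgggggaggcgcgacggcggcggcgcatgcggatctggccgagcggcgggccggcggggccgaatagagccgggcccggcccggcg
Cntn2, chr13:46527976-46528275, minus strand: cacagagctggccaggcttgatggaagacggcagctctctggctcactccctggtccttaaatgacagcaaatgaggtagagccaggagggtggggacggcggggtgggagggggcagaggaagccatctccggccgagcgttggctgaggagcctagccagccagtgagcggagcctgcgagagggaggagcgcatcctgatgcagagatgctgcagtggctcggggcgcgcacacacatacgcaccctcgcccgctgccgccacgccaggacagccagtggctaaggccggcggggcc
Nfasc, first window, chr13:46701115-46701414, minus strand: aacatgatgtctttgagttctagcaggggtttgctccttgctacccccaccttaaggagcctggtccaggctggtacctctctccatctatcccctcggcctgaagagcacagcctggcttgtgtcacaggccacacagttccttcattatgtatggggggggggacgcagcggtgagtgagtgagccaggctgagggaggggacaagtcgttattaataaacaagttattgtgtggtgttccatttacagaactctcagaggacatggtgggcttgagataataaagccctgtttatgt
Nfasc, second window, chr13:46627799-46628098, minus strand: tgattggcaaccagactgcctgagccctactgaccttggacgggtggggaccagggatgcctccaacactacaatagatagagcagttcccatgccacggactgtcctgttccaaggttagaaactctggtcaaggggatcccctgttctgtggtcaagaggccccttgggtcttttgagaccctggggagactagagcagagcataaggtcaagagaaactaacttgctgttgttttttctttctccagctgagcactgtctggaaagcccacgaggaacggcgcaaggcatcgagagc
The Sptbn4 window held the GC box at 2 places, and the windows of Cntn1, Cntn2, Nfasc and Ank3 held none. Of 33465 windows of this length, 33.1% held at least 1. The Sptbn4 window was 75% G and C, above 96.8% of all windows, and that of Cntn2 was 67% G and C, above 87.3%. The first and second Nfasc windows were at 51.3% and 53.7%, the Ank3 window at 52.7% and the Cntn1 window at 49%, near the median of 51.7% over all windows. The E-box CANNTG, which reads the same on both strands, occurred in 72.1% of all windows, 2 times in that of Cntn1 and once each in those of Cntn2 and the second Nfasc window. These are matches of letters in annotated windows, and the counts do not say which start was used in any library.

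Total counts per library ranged from 19496602 to 43468509, and the lowest count of any of the 6 genes in any library was 521 (Sptbn4). Values are given as CPM (read counts scaled to a common library size, with TMM factors) and, for levels compared between genes, as RPKM (CPM per kilobase of the deposited gene length). The libraries labelled replicate 1 deviated together from their group means (median correlation 0.171 over 28 pairs across groups, against -0.0255 over 214 pairs with different numbers), so the calls that change without them are given both ways, here or among the processing alternatives. All 12 neuron markers and all 11 oligodendrocyte and myelin markers passed the filter on low counts. So did all 8 fibroblast markers, so passing it does not test the identity of the tissue. A bulk measurement cannot tell fewer cells or axons of a type from less RNA in each.

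In the Intact cord the 6 genes spanned a wide range of levels per length. Cntn1 was highest, with 154 ± 6.22 RPKM (SD, n = 4), followed by Nfasc at 88.6 ± 5.74 RPKM, Cntn2 at 72.6 ± 4.33 and Cntnap1 at 69.1 ± 4.00. The scaffold genes were lowest, with 40.7 ± 4.18 RPKM for Ank3 and 25.1 ± 1.14 for Sptbn4. The deposited length of Ank3 is 10472 bases and that of Cntn1 3928 bases, and levels per length depend on how those lengths were set.

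**Figure D1:**
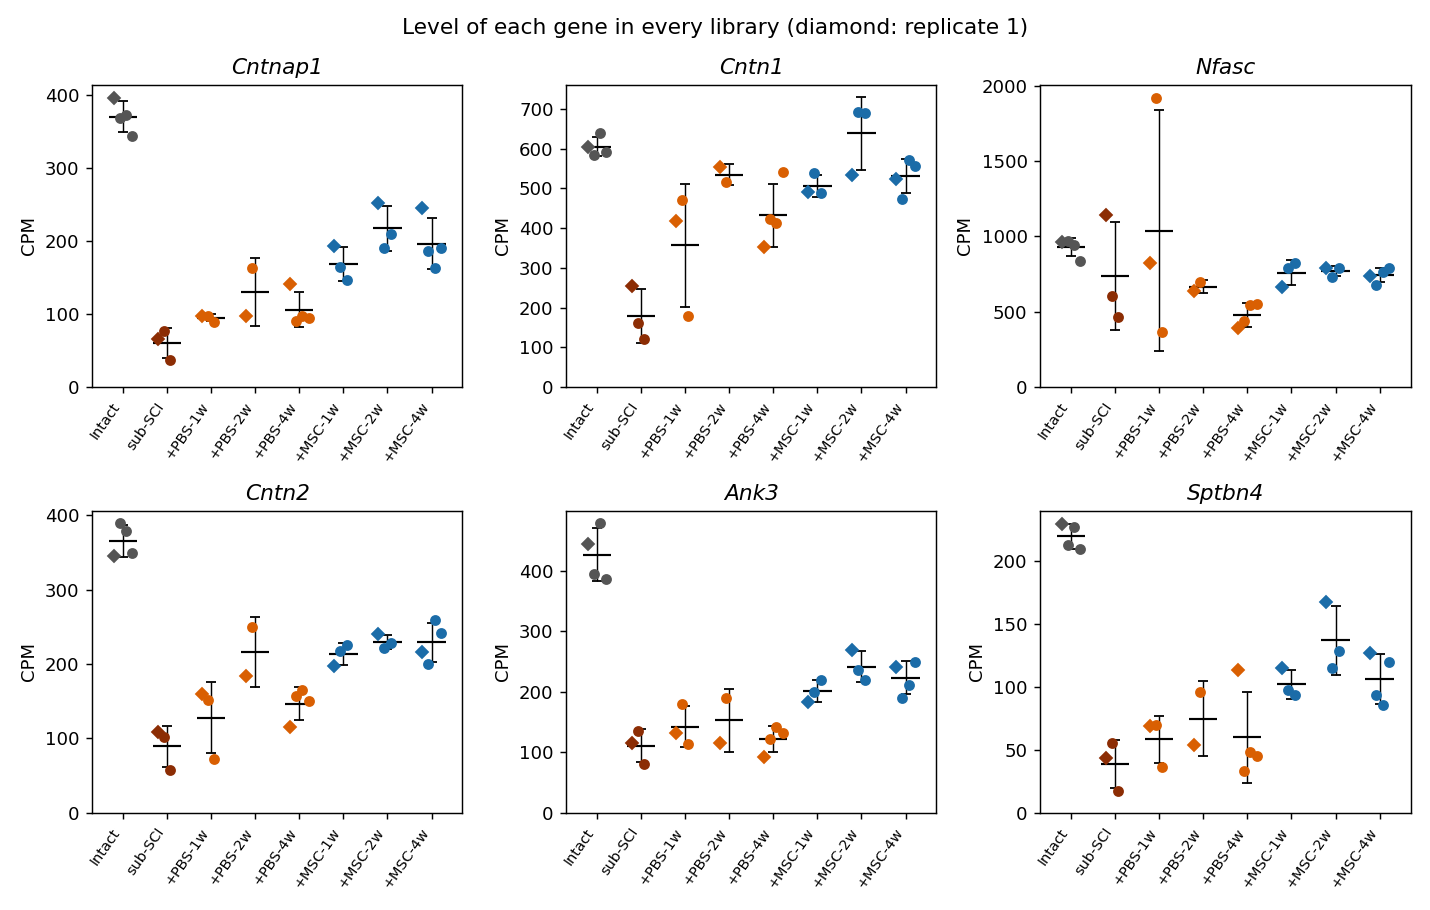
CPM (vertical axis, linear from 0) of each gene in every library of the 8 groups (horizontal axis), with diamonds for replicate 1, horizontal lines at the group mean and bars of 1 SD. Intact libraries lie above all the others for Cntnap1, Cntn2, Ank3 and Sptbn4, and Nfasc reaches 1922 CPM in 1 +PBS-1w library.

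At the time of transplantation, transcripts of the paranode, the juxtaparanode and the nodal scaffold were reduced in the lesion segment, while those of Nfasc were not called. Relative to Intact, 5 of the 6 genes fell in sub-SCI, with log2 fold changes from -2.62 to -1.76, and all 5 also met the study's rule for a differentially expressed gene (DEG), which asks for a log2 fold change beyond 1 in either direction together with an adjusted p below 0.01. Over all genes tested, 30.9% fell at an adjusted p under 0.05 and 17.5% were lower DEGs. Adjusted p-values are from edgeR's quasi-likelihood test with the Benjamini-Hochberg method over all genes tested. In each of those 5 genes every sub-SCI library lay below every Intact library, as it did for 34% of genes tested.

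Cntnap1, whose product Caspr is an axonal protein of the paranodal junction, fell furthest. Its 4 Intact libraries had 396, 368, 373 and 344 CPM, and its 3 sub-SCI libraries had 65.5, 77.4 and 37.4 CPM. The groups were far apart, with the sub-SCI mean at 16.2% of the Intact mean (log2 fold change -2.62 ± 0.23 SE, edgeR adjusted p = 4.96e-09).

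Sptbn4, the beta IV spectrin that links ankyrin G to actin, had 229, 213, 227 and 209 CPM in Intact and 43.7, 55.1 and 17.7 CPM in sub-SCI. The third sub-SCI library was the lowest of all 26 libraries for this gene. The sub-SCI mean was 17.7% of the Intact mean (log2 fold change -2.50 ± 0.39 SE, edgeR adjusted p = 9.7e-06).

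Ank3, the ankyrin G gene that anchors sodium channels, had 445, 394, 479 and 387 CPM in Intact and 115, 135 and 81.3 CPM in sub-SCI. The log2 fold change was -1.95 ± 0.20 SE (edgeR adjusted p = 4.8e-08). The fall of Cntn2 was of similar size, -2.04 ± 0.23 SE (edgeR adjusted p = 1.46e-07), from 345, 390, 378 and 350 CPM in Intact to 108, 102 and 57.8 CPM in sub-SCI. The libraries of the 2 groups did not overlap in either gene.

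Cntn1, the axonal partner of Caspr, had 605, 585, 640 and 592 CPM in Intact and 254, 162 and 120 CPM in sub-SCI. Its log2 fold change of -1.76 ± 0.25 SE (edgeR adjusted p = 4.05e-06) was the smallest among the 5 genes that fell.

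Nfasc, which encodes the neuronal and glial neurofascins, overlapped between the groups. Its Intact libraries had 966, 966, 944 and 840 CPM, and its sub-SCI libraries had 1145, 608 and 463 CPM. The first sub-SCI library exceeded every Intact library and the others lay below (log2 fold change -0.33 ± 0.34 SE, edgeR adjusted p = 0.409). Without that library the log2 fold change was -0.80 (edgeR adjusted p = 0.0637).

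In rats given PBS, 4 of the 6 genes stayed reduced through 4 wpt, whereas Cntn1 came nearer to the Intact level. Every +PBS library still lay below every Intact library for Cntn1. Cntnap1, Cntn2, Ank3 and Sptbn4 fell against Intact at 1, 2 and 4 wpt. In all, 5, 4 and 5 genes fell at 1, 2 and 4 wpt, where 26.4%, 17% and 23.9% of all genes tested fell. The DEG rule was met by 4, 3 and 4 genes, where 12.5%, 5.66% and 10.7% of all genes tested were lower DEGs. The +PBS-2w group has 2 libraries, and without the replicate 1 libraries 2 genes fell there and none was a DEG (edgeR adjusted p = 0.268 for Cntn2 and 0.112 for Sptbn4).

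Cntnap1 had 97.8, 97.8 and 89.6 CPM at 1 wpt, 97.4 and 163 CPM at 2 wpt and 142, 90.5, 96.8 and 94.6 CPM at 4 wpt. All +PBS libraries lay below the Intact minimum of 344 CPM, and the log2 fold changes were -1.96 ± 0.22, -1.51 ± 0.26 and -1.81 ± 0.20 SE (edgeR adjusted p = 3.44e-07, 0.000114 and 2.91e-07). Sptbn4 followed a similar course, with log2 fold changes of -1.91, -1.56 and -1.87 against Intact (edgeR adjusted p = 0.000218, 0.00788 and 0.000101). At 2 wpt the call for Sptbn4 rested on 1 library, since without +PBS-2w replicate 1 its log2 fold change was -1.17 (edgeR adjusted p = 0.17). The call for Cntn2 at 2 wpt (-0.75, edgeR adjusted p = 0.0227) was lost in the same way (-0.52, edgeR adjusted p = 0.302). Ank3 stayed between -1.48 and -1.81 at the 3 times (edgeR adjusted p = 4.31e-05 or below).

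Cntn1 had 418, 472 and 179 CPM at 1 wpt, 553 and 516 CPM at 2 wpt and 353, 424, 412 and 542 CPM at 4 wpt. The third library at 1 wpt was far below the other two, and without it the fall at 1 wpt (log2 fold change -0.76, edgeR adjusted p = 0.0119) was no longer called (-0.44, edgeR adjusted p = 0.0846). At 2 and 4 wpt the log2 fold changes of Cntn1 were -0.18 ± 0.27 and -0.48 ± 0.22 SE (edgeR adjusted p = 0.644 and 0.073). The fall at 4 wpt was called without +PBS-4w replicate 4 (-0.61, edgeR adjusted p = 0.0403). It was also called with only the 2 groups in the fit (edgeR adjusted p = 0.0175, DESeq2 adjusted p = 0.00401). Between sub-SCI and +PBS-4w, Cntn1 rose by 1.27 on the log2 scale (edgeR adjusted p = 0.000847), Cntnap1 by 0.82 (0.00806) and Cntn2 by 0.72 (0.0195). These 3 of 6 genes compare with 13.4% of all genes tested that rose, and the 1 DEG (Cntn1) with 4.28%. The calls for Cntnap1 and Cntn2 were lost without sub-SCI replicate 3 (edgeR adjusted p = 0.0674 and 0.143).

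Nfasc varied widely at 1 wpt. There its 3 libraries had 825, 1922 and 366 CPM, the highest and the lowest values in the series. The log2 fold change against Intact was 0.16 ± 0.33 SE (edgeR adjusted p = 0.711), and -0.64 without the second library (edgeR adjusted p = 0.0648). At 4 wpt all 4 libraries lay below Intact, with 389, 435, 546 and 550 CPM, and Nfasc fell by 0.95 ± 0.31 SE on the log2 scale (edgeR adjusted p = 0.0143). Without the replicate 1 libraries that value was -0.84 (edgeR adjusted p = 0.0828).

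The 2 libraries with the highest Nfasc also had the highest summed level of oligodendrocyte precursor markers, through some of those markers. Among the injured libraries they also had the highest sum of oligodendrocyte and myelin markers. The summed level of the 4 markers (Pdgfra, Cspg4, Gpr17 and Bcas1) was 1305 CPM in +PBS-1w replicate 2, the highest of the 26 libraries, and 1183 CPM in sub-SCI replicate 1, the second highest. In the other +PBS-1w libraries it was 889 and 711 CPM, and in the other sub-SCI libraries 876 and 877 CPM. Bcas1 made up most of that sum, with 919 CPM in +PBS-1w replicate 2 against 575 and 263 CPM, and 889 CPM in sub-SCI replicate 1 against 574 and 460 CPM. Gpr17 was also the highest of its group in both libraries, at 73.9 and 37.6 CPM. Pdgfra and Cspg4 did not share this pattern. In +PBS-1w replicate 2 Pdgfra had 228 CPM against 175 and 375 CPM, and Cspg4 83.1 CPM against 89.9 and 57.0 CPM. In sub-SCI replicate 1 both were the lowest of the group, with 198 CPM against 199.5 and 331 CPM for Pdgfra and 57.8 CPM against 72.6 and 68.1 CPM for Cspg4. The oligodendrocyte and myelin sum was 32740 CPM in +PBS-1w replicate 2, against 20638 and 12504 CPM in its group. In sub-SCI replicate 1 it was 35446 CPM, against 23889 and 17491 CPM. Across the 26 libraries, which share groups, Pearson's r between log2 Nfasc and the log2 precursor sum was 0.775. It was 0.654 with the oligodendrocyte and myelin marker sum and 0.35 with the neuron marker sum. The part of these cell types in the Nfasc values was not tested.

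After transplantation of hUC-MSCs, 4 of the 6 genes were higher than after PBS: the paranodal Cntnap1, the juxtaparanodal Cntn2 and the scaffold genes Ank3 and Sptbn4. With the 3 weeks averaged, Cntnap1, Sptbn4, Ank3 and Cntn2 rose, by 0.82, 0.84, 0.68 and 0.49 on the log2 scale, while Cntn1 (0.35) and Nfasc (0.13) did not pass the test. These 4 of 6 genes compare with 12.3% of all genes tested that rose. None of the 6 met the DEG rule, which 1.61% of all genes tested met upwards.

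**Figure D2:**
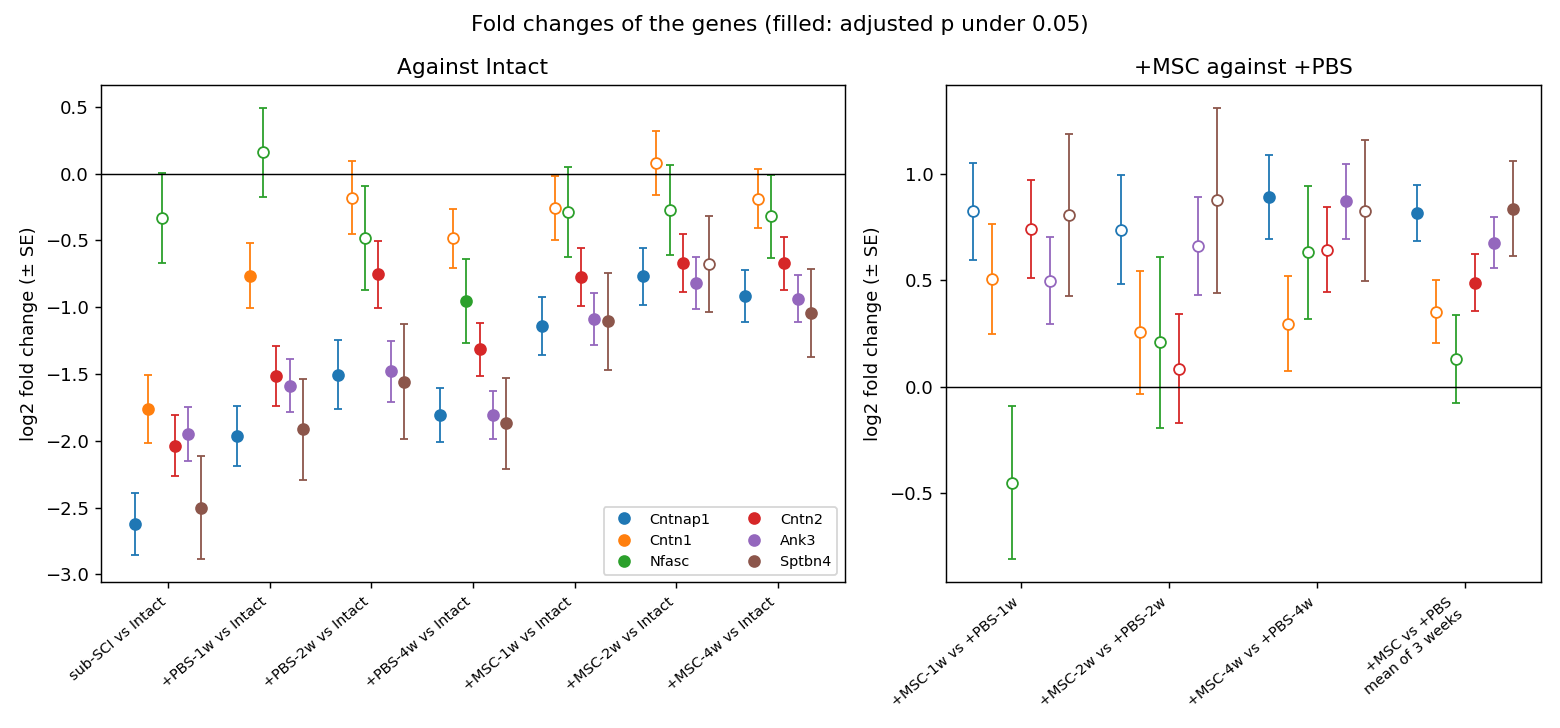
Log2 fold change with its SE (vertical axis) of each gene in 7 comparisons with Intact (left) and in +MSC against +PBS at each week and averaged over the weeks (right), with filled points for an adjusted p under 0.05 in edgeR. Against Intact the points of Cntnap1 and Sptbn4 run from -2.62 and -2.50 in sub-SCI to -0.92 and -1.04 in +MSC-4w, while those of Nfasc stay above -1.

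For Cntnap1 the +MSC libraries had 193, 165 and 147 CPM at 1 wpt, 252, 191 and 210 CPM at 2 wpt and 246, 187, 163 and 190 CPM at 4 wpt. At each week every +MSC library exceeded every +PBS library. The average log2 difference was 0.82 ± 0.13 SE (edgeR adjusted p = 0.000521) and 0.65 without the replicate 1 libraries (edgeR adjusted p = 0.0122).

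For Ank3 the +MSC libraries had 183, 200.3 and 219 CPM at 1 wpt, 269, 236 and 219 CPM at 2 wpt and 241, 190.2, 212 and 249 CPM at 4 wpt. The +PBS libraries had 132, 179.8 and 114 CPM, then 116 and 189.8 CPM, then 92.3, 123, 142 and 131 CPM. The groups did not overlap at any week, and the average difference was 0.68 ± 0.12 SE on the log2 scale (edgeR adjusted p = 0.000849; 0.49 and 0.0355 without the replicate 1 libraries).

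For Sptbn4 the +MSC libraries had 115, 97.5 and 93.5 CPM at 1 wpt, 168, 115 and 128 CPM at 2 wpt and 127, 93.8, 86.0 and 120.1 CPM at 4 wpt. The +PBS libraries had 69.0, 69.5 and 36.3 CPM, then 53.6 and 95.6 CPM, then 113, 33.5, 48.6 and 44.9 CPM. The first +PBS-4w library lay inside the +MSC-4w range, and the other +PBS libraries lay below the +MSC libraries of their week. The average difference was 0.84 ± 0.22 SE (edgeR adjusted p = 0.0109), and 0.70 without +PBS-2w replicate 1 (edgeR adjusted p = 0.0812).

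Cntn2 rose by 0.49 ± 0.13 SE on the log2 scale (edgeR adjusted p = 0.0124), and this call was lost without +PBS-2w replicate 1 (0.40, edgeR adjusted p = 0.0922) and without the replicate 1 libraries (0.46, edgeR adjusted p = 0.0826). Its +MSC libraries had 197 to 226 CPM at 1 wpt, 222 to 241 CPM at 2 wpt and 200.5 to 259 CPM at 4 wpt. The corresponding +PBS ranges were 72.7 to 159, 183 to 250.2 and 115 to 165 CPM, so the groups overlapped at 2 wpt only. Cntn1 differed by 0.35 ± 0.15 SE (edgeR adjusted p = 0.0915), and passed the test without +PBS-1w replicate 2 (0.44, edgeR adjusted p = 0.0361). Nfasc differed by 0.13 ± 0.21 SE (edgeR adjusted p = 0.699) and by 0.40 without that library (edgeR adjusted p = 0.0702).

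Week by week, the calls came at 4 wpt. Cntnap1 rose by 0.89 ± 0.20 SE (edgeR adjusted p = 0.0142) and Ank3 by 0.87 ± 0.18 SE (edgeR adjusted p = 0.00936), and 3.07% of all genes tested rose there. Sptbn4 differed by 0.83 ± 0.33 SE (edgeR adjusted p = 0.142), by 1.30 without +PBS-4w replicate 1 (edgeR adjusted p = 0.00653) and by 1.24 without the replicate 1 libraries (edgeR adjusted p = 0.0335). The call for Cntnap1 was lost without +MSC-4w replicate 1 or +PBS-4w replicate 2 (edgeR adjusted p = 0.0723 and 0.0616), and with only the 2 groups in the fit neither gene was called (0.0678 for Cntnap1 and 0.0545 for Ank3). At 1 wpt 0 of the 6 genes were called by edgeR, 4 had an unadjusted p under 0.05, and DESeq2 called 1 (Cntnap1), with 0.0389% of all genes tested rising. At 2 wpt 0 were called by edgeR, 2 had an unadjusted p under 0.05 and DESeq2 called 0 on all libraries and 1 (Sptbn4) on the 2 groups, with 0% of all genes tested rising. All +MSC libraries exceeded all +PBS libraries for 5, 4 and 4 of the 6 genes at 1, 2 and 4 wpt, as they did for 15.3%, 18.6% and 6.08% of genes tested.

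The 3 weeks were compared with each other by the interaction of week and treatment. By edgeR 0 of the 6 genes differed between weeks (adjusted p = 1 for each, 0 at an unadjusted p under 0.05, and 0 called by DESeq2), and 0% of all genes tested did, of which 481 had an unadjusted p under 0.05. The difference in Sptbn4 was 0.81, 0.88 and 0.83 on the log2 scale at 1, 2 and 4 wpt, and that in Cntnap1 was 0.82, 0.74 and 0.89. Nfasc went from -0.45 at 1 wpt to 0.63 at 4 wpt, with 1922 CPM in a +PBS-1w library as above, and its difference at 1 wpt was 0.35 without that library.

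Against Intact, Cntnap1, Cntn2 and Ank3 were reduced in the +MSC groups at each week and Sptbn4 at 1 and 4 wpt, while Cntn1 and Nfasc were not called. At 1, 2 and 4 wpt 4, 3 and 4 of the 6 genes fell, where 14.8%, 6.44% and 13.6% of all genes tested fell. Several of these calls rested on single libraries. At 2 wpt that of Cntn2 was lost without any 1 of the +MSC-2w libraries or of Intact replicates 1, 2 and 3 (edgeR adjusted p = 0.0587 to 0.115), and that of Cntnap1 without +MSC-2w replicate 2 or 3 (0.0822 and 0.0613). For Sptbn4 the call was lost without +MSC-1w replicate 2 or 3 (0.0745 and 0.0844) and without +MSC-4w replicate 2 or 3 (0.0606 and 0.0644). Without the replicate 1 libraries Cntn2 was not called at 1 or 2 wpt (0.0501 and 0.0634). At 4 wpt the log2 fold changes were -1.04 ± 0.33 SE for Sptbn4, -0.94 ± 0.18 for Ank3, -0.92 ± 0.20 for Cntnap1 and -0.67 ± 0.20 for Cntn2 (edgeR adjusted p = 0.0208, 0.000419, 0.00133 and 0.014). Cntn1 and Nfasc did not pass the test at any week, with log2 fold changes from -0.26 to 0.08 and from -0.32 to -0.27. Even so, every +MSC library lay below every Intact library for Nfasc at each week and for Cntn1 at 1 and 4 wpt. With only the 2 groups in the fit, DESeq2 called Nfasc at 1, 2 and 4 wpt (adjusted p = 0.0321, 0.0137 and 0.00117). It also called Cntn1 at 1 wpt (adjusted p = 0.00632). In such fits edgeR called Nfasc at 4 wpt (adjusted p = 0.0172) and Cntn1 at 1 wpt (adjusted p = 0.0301). The DEG rule was met by 2, 0 and 0 genes, where 2.63%, 0.461% and 1.53% of all genes tested were lower DEGs.

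Relative to sub-SCI, +MSC-4w was higher for every gene but Nfasc. Cntnap1 rose by 1.71 ± 0.22 SE on the log2 scale, Cntn1 by 1.57 ± 0.25, Sptbn4 by 1.46 ± 0.37, Cntn2 by 1.36 ± 0.22 and Ank3 by 1.01 ± 0.19 (edgeR adjusted p = 0.00327 or below). Nfasc differed by 0.01 ± 0.34 SE (edgeR adjusted p = 0.984). Over all genes tested 22.2% rose and 10.2% were higher DEGs, a rule met by 5 of the 6 genes. Without the replicate 1 libraries 4 of the 6 met it, and the log2 fold change of Ank3 was 0.97. This comparison and that of +PBS-4w with sub-SCI share the sub-SCI libraries.

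The order of the 8 groups by mean CPM was the same for Cntnap1 and Sptbn4, from Intact through +MSC-2w, +MSC-4w, +MSC-1w, +PBS-2w, +PBS-4w and +PBS-1w to sub-SCI. For Ank3 +PBS-1w and +PBS-4w changed places. Most neighbours in these orders overlapped: of 7 neighbouring pairs, 2 did not for Cntnap1 (Intact from +MSC-2w and +PBS-1w from sub-SCI), and 1 did not for Ank3 and for Sptbn4 (Intact from +MSC-2w). For Cntn1 +MSC-2w had the highest mean, 639 ± 91.0 CPM, and overlapped Intact at 605 ± 24.4 CPM. For Nfasc +PBS-4w was lowest and stood apart from +PBS-2w, its neighbour in the order.

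The balance between gene pairs within a library was examined because it does not depend on the library's total. The log2 ratio of Cntn1 to Cntn2 counts was 0.73 ± 0.10 in Intact (SD, n = 4) and averaged 1.35 over the 12 sub-SCI and +PBS libraries. Of those 12, 11 lay above every Intact library, and the exception was sub-SCI replicate 2 at 0.67. By group the mean was 0.99 in sub-SCI and 1.44, 1.32 and 1.56 in +PBS at 1, 2 and 4 wpt. The difference of the 12 pooled libraries from Intact was 0.62 (two-sided exact permutation test, p = 0.00275, adjusted over 4 tests 0.011). The ratio was 0.13 lower in +MSC than in +PBS (exact permutation test within weeks, p = 0.253, adjusted 0.295).

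The log2 ratio of Ank3 to Sptbn4, the 2 scaffold genes, was 0.95 ± 0.09 in Intact and averaged 1.30 in the sub-SCI and +PBS libraries, a difference of 0.35 (two-sided exact permutation test, p = 0.295, adjusted 0.295). The first +PBS-4w library had a ratio of -0.30, while its group's other libraries had 1.87, 1.54 and 1.55. Without it the difference from Intact was 0.49 (exact permutation test, adjusted p = 0.0313). Between +MSC and +PBS the ratio differed by -0.22 (exact permutation test, p = 0.279, adjusted 0.295) with that library and by -0.38 without it (adjusted p = 0.0103).

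**Figure D3:**
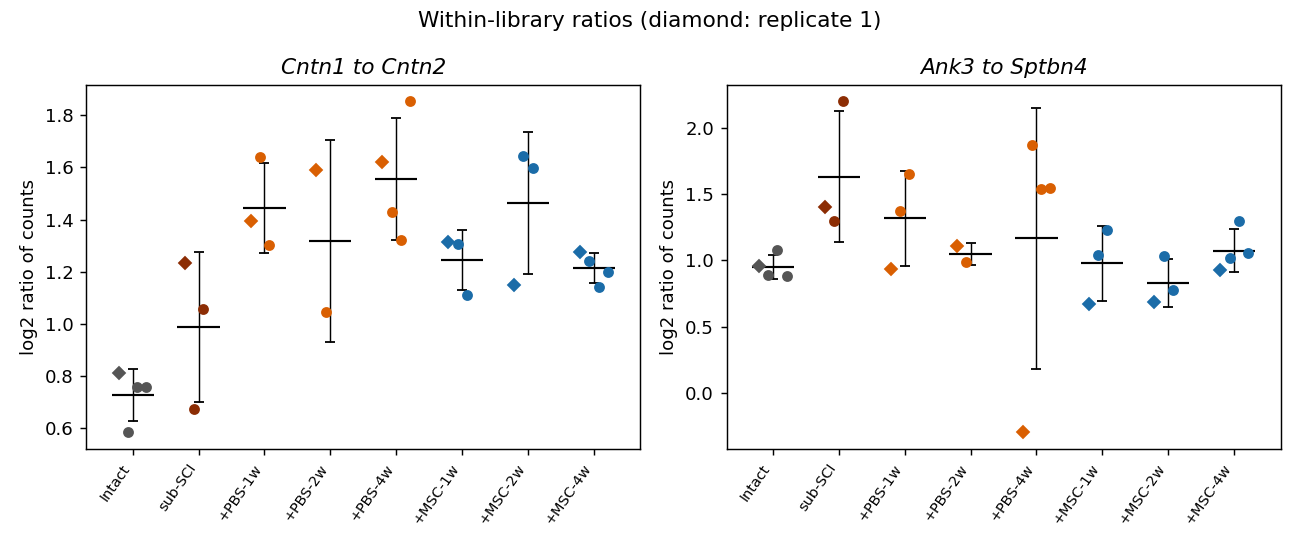
Log2 ratio of counts within each library (vertical axis) for Cntn1 to Cntn2 and for Ank3 to Sptbn4 in the 8 groups (horizontal axis), with diamonds for replicate 1, lines at the group mean and bars of 1 SD. On the left 11 of the 12 sub-SCI and +PBS libraries lie above the Intact libraries, and on the right +PBS-4w replicate 1 lies alone at -0.30.

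The 6 genes did not form 1 block across the libraries. Among the 15 pairs, Cntnap1 and Sptbn4 had the highest Pearson's r of log2 CPM (0.965 over 26 libraries, 0.942 over the 22 injured ones), followed by Cntnap1 and Ank3 (0.917). Cntn1 was closest to Cntn2 (0.881), and Nfasc had r between 0.355 (with Cntnap1) and 0.556 (with Ank3). These values describe libraries that share groups and carry no test. Over all 17990 genes tested, the gene most like Cntnap1 was Asah2 (r = 0.992), followed by Amigo1 and Rph3a. For Sptbn4 it was Atcay (0.996), with Ppfia3 and Mapk8ip2 next. Those of Ank3 were Usp32 (0.982), Slc24a2 and Kif1b, those of Cntn2 were Pcdh9 (0.973), Grm3 and Ttll7, and those of Cntn1 were Gabrg1 (0.977), Dtna and Zdhhc2. Nfasc had no close match, with Pcdh17 at 0.860 followed by Chn2 and Tmem108. The mean standardized level of the 6 genes was most like Ttbk1 (0.983), Map2, Mapk8ip3, Elfn2 and Tmem178b.

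Markers of several cell types moved with these genes. For the counts below, 30.9% of all genes tested fell and 30.5% rose in sub-SCI. In +MSC against +PBS over the weeks 12.3% rose and 10.9% fell. All 12 neuron markers, of which the neurofilament gene Nefm was the most abundant, fell in sub-SCI (median log2 fold change -2.72), and 11 of 12 rose in +MSC against +PBS over the weeks (median 1.06). Their summed level was 12181 to 14598 CPM in Intact, 552 to 2583 CPM in sub-SCI, 1389 to 7259 CPM in the +PBS libraries and 4356 to 10795 CPM in the +MSC libraries. Of 11 oligodendrocyte and myelin markers, led by Mbp, 10 fell in sub-SCI (median -1.10), and 1 rose in +MSC against +PBS (Ermn, median of the list 0.26). Of 4 oligodendrocyte precursor markers 1 rose in sub-SCI (median 0.04) and 1 fell in +MSC against +PBS (median -0.06). Of 8 astrocyte markers, led by Gfap, 5 fell in sub-SCI (median -1.15) and 2 rose in +MSC against +PBS (median 0.28). Pearson's r with the neuron sum was 0.966 for Sptbn4, 0.956 for Cntnap1, 0.888 for Cntn2, 0.838 for Ank3, 0.773 for Cntn1 and 0.35 for Nfasc. With the oligodendrocyte and myelin sum it was 0.807 for Sptbn4, 0.794 for Ank3, 0.736 for Cntn2, 0.735 for Cntnap1, 0.654 for Nfasc and 0.527 for Cntn1. Over the 22 injured libraries the latter values were, in the same order, 0.659, 0.529, 0.531, 0.47, 0.682 and 0.485. There the neuron sum gave 0.956 for Sptbn4, 0.95 for Cntnap1, 0.839 for Cntn2, 0.778 for Ank3 and 0.22 for Nfasc. For Cntn1 the astrocyte sum gave 0.754 over all 26 libraries, below its neuron value, and 0.917 over the 22 injured ones, above its neuron value of 0.76. In the injured libraries the astrocyte sum gave 0.791 for Cntn2, 0.693 for Cntnap1, 0.69 for Sptbn4, 0.506 for Ank3 and 0.231 for Nfasc.

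In the opposite direction, all 8 microglia and macrophage markers (led by C1qa) and all 8 fibroblast markers (led by Col3a1) rose in sub-SCI, with medians of 3.56 and 3.87 on the log2 scale. In +MSC against +PBS 3 of 8 and 8 of 8 fell, with medians of -0.31 and -1.23. Over all genes tested 30.5% rose in sub-SCI and 10.9% fell in +MSC against +PBS. The fibroblast sum was 172 to 1255 CPM in Intact, 8020 to 19528 CPM in sub-SCI, 1242 to 9436 CPM in +PBS and 558 to 3627 CPM in +MSC. The third sub-SCI library, lowest for all 6 genes within its group, had the highest fibroblast sum and the lowest neuron sum of the series. Schwann cell markers had medians of -0.66 in sub-SCI (1 of 6 rose, 1 fell) and -0.64 in +MSC against +PBS (0 of 6 called by edgeR, 1 at an unadjusted p under 0.05). Of 7 endothelial markers 6 were in the table and 1, Cldn5, had no count in any library. Of the 5 tested, 1 rose and 1 fell in sub-SCI (median 0.41), and 1 fell in +MSC against +PBS (median -0.35). The part of cell composition in the values of the 6 genes was not tested.

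Other proteins of these domains were examined by the compartment in which they act. The shares over all genes tested were 30.9% lower and 30.5% higher in sub-SCI. In +MSC against +PBS over the weeks they were 12.3% higher and 10.9% lower. Of 10 nodal channels and adhesion genes, all fell in sub-SCI (median -2.50), and in +MSC against +PBS over the weeks 7 rose and 1 fell (median 0.67). Scn8a, which encodes the main sodium channel of mature nodes, went from 266 ± 45.5 CPM in Intact to 17.0 ± 7.61 CPM in sub-SCI (log2 fold change -3.97, edgeR adjusted p = 1.94e-08). It rose by 1.34 in +MSC against +PBS (edgeR adjusted p = 0.000456). The gene that fell, Kcnk2, encodes a two-pore potassium channel and differed by -0.61 (edgeR adjusted p = 0.00714), and is named here after its value was seen.

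All 5 juxtaparanodal genes fell in sub-SCI (median -3.41) and rose in +MSC against +PBS (median 1.17). Kcna2, a potassium channel gathered beneath the myelin, had 777 ± 104 CPM in Intact, 73.1 ± 29.4 CPM in sub-SCI, 228 ± 21.7 CPM in +PBS-4w and 409 ± 47.6 CPM in +MSC-4w. The range in +MSC-4w was 363 to 452 CPM, above the 213 to 260.0 CPM of +PBS-4w, and the average difference over the weeks was 0.88 (edgeR adjusted p = 0.000309). Adam22, a scaffold partner of those channels, fell by 3.54 on the log2 scale in sub-SCI and rose by 1.21 in +MSC (edgeR adjusted p = 5.74e-09 and 0.000318).

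The 4 cytoskeletal genes of the paranode all fell in sub-SCI (median -1.83), and 3 rose in +MSC (median 0.44). Epb41l3, whose product 4.1B binds the tail of Caspr, went from 488 ± 28.1 CPM in Intact to 80.9 ± 34.1 CPM in sub-SCI, and rose by 1.08 in +MSC against +PBS (edgeR adjusted p = 0.000463). In the nodal matrix 2 of 6 genes rose and 2 fell in sub-SCI, near the 30.5% and 30.9% of all genes tested that did. Vcan, the versican core protein, rose by 1.67 (edgeR adjusted p = 6.63e-07) and Omg, the oligodendrocyte myelin glycoprotein, fell by 1.99 (edgeR adjusted p = 1.62e-05), the latter being the 1 gene of this group that rose in +MSC against +PBS (0.56, edgeR adjusted p = 0.0365).

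On the myelin side 4 of 5 genes fell in sub-SCI (median -0.78) and 0 rose in +MSC against +PBS by edgeR (median 0.18, 1 at an unadjusted p under 0.05). Mal, a lipid raft protein of compact myelin, fell by 1.40 in sub-SCI (edgeR adjusted p = 0.000262) and differed by 0.39 between +MSC and +PBS (edgeR adjusted p = 0.104). The relatives of the 6 genes, other contactins, Caspr proteins, ankyrins, spectrins and L1 family members, fell in 11 of 12 cases in sub-SCI (median -3.10) and rose in 11 of 12 in +MSC (median 1.05). L1cam, a relative of neurofascin, rose by 0.77 (edgeR adjusted p = 0.00013). Cntn5 fell furthest in sub-SCI (fitted log2 fold change -4.41, edgeR adjusted p = 2.94e-07), at 3.62 to 4.35 CPM in Intact and 0 to 0.362 CPM in sub-SCI. For comparison, the medians of the 6 genes were -1.99 in sub-SCI and 0.58 in +MSC against +PBS, and those of all genes tested were -0.02 and -0.02.

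**Figure D4:**
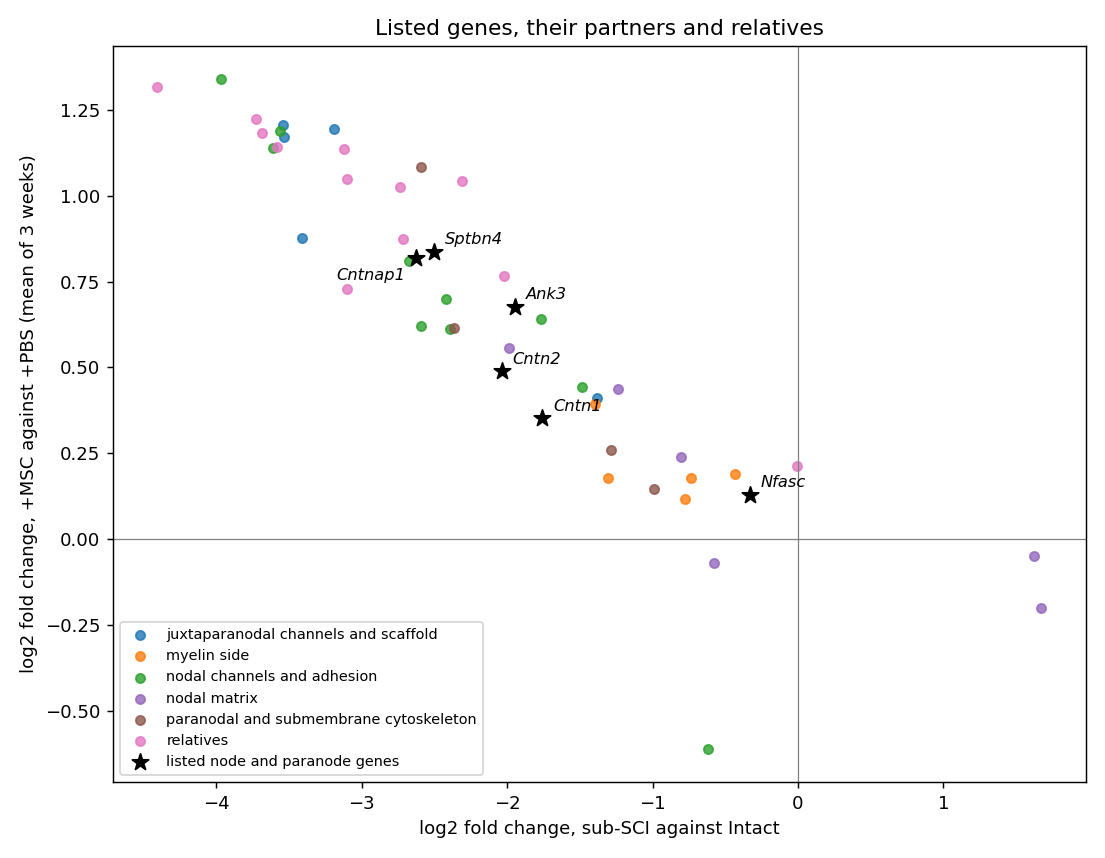
Log2 fold change of sub-SCI against Intact (horizontal axis) and of +MSC against +PBS averaged over the weeks (vertical axis) for each gene of the 6 partner and relative lists, with stars for the 6 named genes. The juxtaparanodal genes and relatives lie mostly at the upper left, beyond Cntnap1 and Sptbn4, and Nfasc lies at -0.33 and 0.13 near the myelin side genes.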

How the data were processed

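RNA sequencing of 26 poly(A) libraries was compared in 8 groups that the labels name. According to the methods and the submitters' processing notes, the authors used Trim Galore 0.5.0 for trimming and HISAT2 2.1.0 for alignment, first to GRCh38 to discard human reads and then to Rnor6. Proper pairs were selected (SAMtools 1.9) and assigned to genes (featureCounts 1.6.4). The deposited values are raw counts per gene without normalization. The annotation release and strand setting of the counting are not given in the sources used here, so overlapping genes and close paralogs are uncertain, and a gene's isoforms are pooled. Each library's own counts equalled the joint table in all 26 libraries.

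R 4.3.3, edgeR 4.0.16, DESeq2 1.42.0 and limma 3.58.1 were used. The main test was edgeR's quasi-likelihood test (glmQLFit, glmQLFTest) on the 17990 genes that passed filterByExpr, with TMM scaling and 1 coefficient for each of the 8 groups, followed by Benjamini-Hochberg adjustment over those genes. The SE is the absolute log2 fold change over the square root of F. Log2 ratios within a library used counts plus 0.5 and were compared by exact permutation, adjusted over 4 tests. A ratio of Cntnap1 to Cntnap2 was planned and was not computed, because Cntnap2 was not analysed here. The edgeR test was tried on simulated counts before use, for sub-SCI against Intact only. Correlations used log2 CPM with a prior count of 2 between genes and log2 CPM with marker sums. Gene positions are those of RefSeq (GRCr8), a later build than the one the reads were aligned to, and no coordinates on Rnor6 are given.

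The members and gene lists were chosen with earlier results of these data known. Of 115 listed genes 111 were in the table, and Cntnap2, Cntnap5a, Sptbn5 and Pecam1 were not analysed here. Named besides the 6 genes are, for each partner and relative list, the gene with the smallest p between +MSC and +PBS over the weeks and those that changed most in sub-SCI, and the 3 genes most correlated with each of the 6. Counts of at least 19496602 per library leave counting error small for the 6 genes, so the spread between libraries sets the precision. The alternatives were DESeq2 on all libraries or on the 2 groups compared, edgeR on the 2 groups, other size factors (median of ratios), dropping the filter or requiring 10 counts throughout, a term for replicate 1, the libraries other than replicate 1, the replicate number as a block, another prior count (5) for the ratios, and each library left out in turn.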

Additional observations from a re-analysis of the deposited data

Results flagged for a closer look

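Within groups of 4 libraries, 24 sets of values (the 6 genes and 2 ratios in Intact, +PBS-4w and +MSC-4w) were checked for 1 library far from the others, and 2 were found. Chance gives about 1 in 20. Both belong to +PBS-4w replicate 1. Cntnap1 was at 142 CPM in that library, against 90.5 to 96.8 CPM in the other three libraries of the group. The log2 ratio of Ank3 to Sptbn4 was -0.30 there, against 1.54 to 1.87. Sptbn4 was at 113 CPM in this library and at 33.5 to 48.6 CPM in the others of its group. Ank3, Cntn2, Cntn1 and Nfasc had their lowest values of the group in it, 92.3, 115, 353 and 389 CPM. The neuron marker sum of the same library was 7259 CPM, against 2020 to 2792 CPM in the others. Its fibroblast marker sum was 1242 CPM, against 3999 to 5025 CPM. The part of these differences in the 2 values was not tested.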

How the results depend on the processing

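No direction of a called value was reversed. Without the replicate 1 libraries, the genes that fell in +PBS-2w against Intact went from 4 to 2 and the DEGs from 3 to 0, and the DEGs in +MSC-1w against Intact from 2 to 1. The Ank3 to Sptbn4 ratio then differed by 0.61 between the sub-SCI and +PBS libraries and Intact (adjusted p = 0.0485, exact permutation) and by -0.33 between +MSC and +PBS (adjusted p = 0.0444, exact permutation). DESeq2 on all libraries called 1 gene in +MSC-1w against +PBS-1w and 1 DEG in +MSC-4w against Intact. DESeq2 on the 2 groups called 1 gene at 1 wpt, 1 at 2 wpt and 4 at 4 wpt between +MSC and +PBS, 5 in +MSC-2w against Intact, 1 DEG in +MSC-4w against Intact, and 1 gene rather than 3 in +PBS-4w against sub-SCI. With edgeR on the 2 groups, 0 were called in +MSC-4w against +PBS-4w, 1 DEG in +MSC-4w against Intact, and 1 gene and 0 DEGs in +PBS-4w against sub-SCI. The cause of these changes was not tested.

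With 1 library left out, sub-SCI against Intact kept 5 genes and 5 DEGs in each of 7 fits. The other counts of genes called ranged from 4 to 5 (+PBS-1w), 2 to 4 (+PBS-2w) and 5 to 6 (+PBS-4w) against Intact, from 3 to 4 (+MSC-1w), 1 to 3 (+MSC-2w) and 3 to 4 (+MSC-4w) against Intact, from 1 to 3 in +MSC-4w against +PBS-4w, from 2 to 5 over the weeks, and from 1 to 3 in +PBS-4w against sub-SCI. DEG counts ranged from 4 to 5, 1 to 2 and 4 to 4 in the +PBS groups against Intact, 0 to 1 in +MSC-4w against Intact, 0 to 2 in +MSC-4w against +PBS-4w, 0 to 2 in +PBS-4w against sub-SCI and 3 to 5 in +MSC-4w against sub-SCI. The 3 DEGs of +PBS-2w against Intact in the main fit were not reached in any of its 6 leave-out fits, where the highest count was 2. The 2 DEGs in +MSC-4w against +PBS-4w appeared without +PBS-4w replicate 1. The Cntn1 to Cntn2 difference from Intact ranged from 0.57 to 0.68, and its adjusted p was 0.0527 without Intact replicate 2 (exact permutation). The +MSC difference in that ratio ranged from -0.22 to -0.04. The Ank3 to Sptbn4 differences ranged from 0.27 to 0.49 and from -0.38 to -0.14. Of 732 values of single genes under the other alternatives 699 stayed on the same side of the threshold, 14 lost a call and 19 gained one; leaving out libraries gave 702, 21 and 3 of 726.

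The main test did not treat same-numbered libraries as pairs. Between +MSC and +PBS of the same week 4 of 9 same-numbered pairs correlated above 0.1 (from -0.0781 to 0.233). Across all groups 32 of 214 pairs with different numbers did, and 18 of 28 pairs of replicate 1 libraries. The replicate block changed no count of calls (4 genes over the weeks, as without it), and gave ratio differences of -0.15 for Cntn1 to Cntn2 and -0.21 for Ank3 to Sptbn4. Depth limits none of the 6 genes, whose counts were 521 or more. Precision was limited by 2 to 4 libraries per group.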
